A study of Mus musculus with 2 samples.

Results

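Transforming growth factor-beta (TGF-beta) signalling in the structural cells of the allergen-challenged mouse lung was followed through 10 genes, chosen by symbol from the 32285 genes counted. They are the ligands Tgfb1, Tgfb2 and Tgfb3, the receptors Tgfbr1 and Tgfbr2, the latency and activation genes Ltbp1 and Thbs1, and the matricellular genes Ccn1, Ccn2 and Postn. All 10 were found once each in the gene table. RNA of single lung cells, sorted as negative for CD45.2, a surface protein of blood-derived cells, was counted from the 3' end in droplets, in 2 libraries. The first came from WT mice of the strain C57B6/J and the second from Plaur knockout mice, which lack the gene of the urokinase receptor uPAR. Each genotype had 8 mice. Lipopolysaccharide with ovalbumin was given on days 0 and 7 to sensitise both, and ovalbumin aerosol followed on day 14. No unchallenged animals were part of the design, so every level below is a level after challenge. The labels do not say how many mice entered a library, nor their age, and they give the cell type as total lung although the cells were sorted.

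TGF-beta ligands are secreted in a latent form, folded together with a propeptide that keeps them inactive. Latent TGF-beta binding proteins tether this complex to the extracellular matrix, and integrins, proteases or thrombospondin-1 release the active ligand. The free ligand binds TGFBR2, which recruits and phosphorylates TGFBR1, and Smad transcription factors carry the signal to the nucleus. CCN1, CCN2 and periostin are matricellular proteins, that is, secreted proteins of the matrix that change how cells respond to it, and their genes also respond to mechanical load through YAP and TEAD factors or, for Postn, to interleukin-13. uPAR binds urokinase at the cell surface, and the plasmin that urokinase makes is one of the proteases that can release latent TGF-beta.

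After filtering, 10225 WT cells and 8934 cells of the library labelled Plaur KO (KO-labelled below) remained, with medians of 4837 and 5538 unique molecular identifiers (UMIs) per cell. A UMI stands for 1 captured transcript, and CPM, counts per 1e6, is the gene's UMIs scaled to a common class total. Clusters were named from marker genes, without use of the 10 genes, and a name such as AT2-like means only that those markers led the cluster. Cluster 7 held fibroblasts with markers of both the adventitial and the alveolar kind, and cluster 5 held epithelial cells with markers of type 2 (AT2) and type 1 (AT1) alveolar cells, so both are given by number. Of 14 classes described, each with 20 or more cells in each library, 9 had at least 100 in each and were compared, and the others are given as values. The clusters without a name other than cluster 5 held 169 and 105 cells and are not described. Neutrophil-like (145 and 25) and B-like cells (191 and 46) were present despite the sort. Plaur was counted in both libraries, with 140 and 82.1 CPM in mesothelial-like and 1.72 and 16.2 CPM in AT2-like cells, and since 3' counts may lie outside a deleted part they do not check the genotype labels. A total of 30 barcodes occurred in both libraries. With 1 library per genotype, no difference between genotypes has a replicate check, no test was made, and every interval covers counting error only. The cell mix differed: mesothelial-like cells made up 10% of the WT and 3.09% of the KO-labelled cells, adventitial fibroblast-like cells 4.46% and 1.25%, and AT2-like cells 32.5% and 57.5%. Whether this reflects the tissue, the digestion or the sort cannot be told apart.

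**Figure D1:**
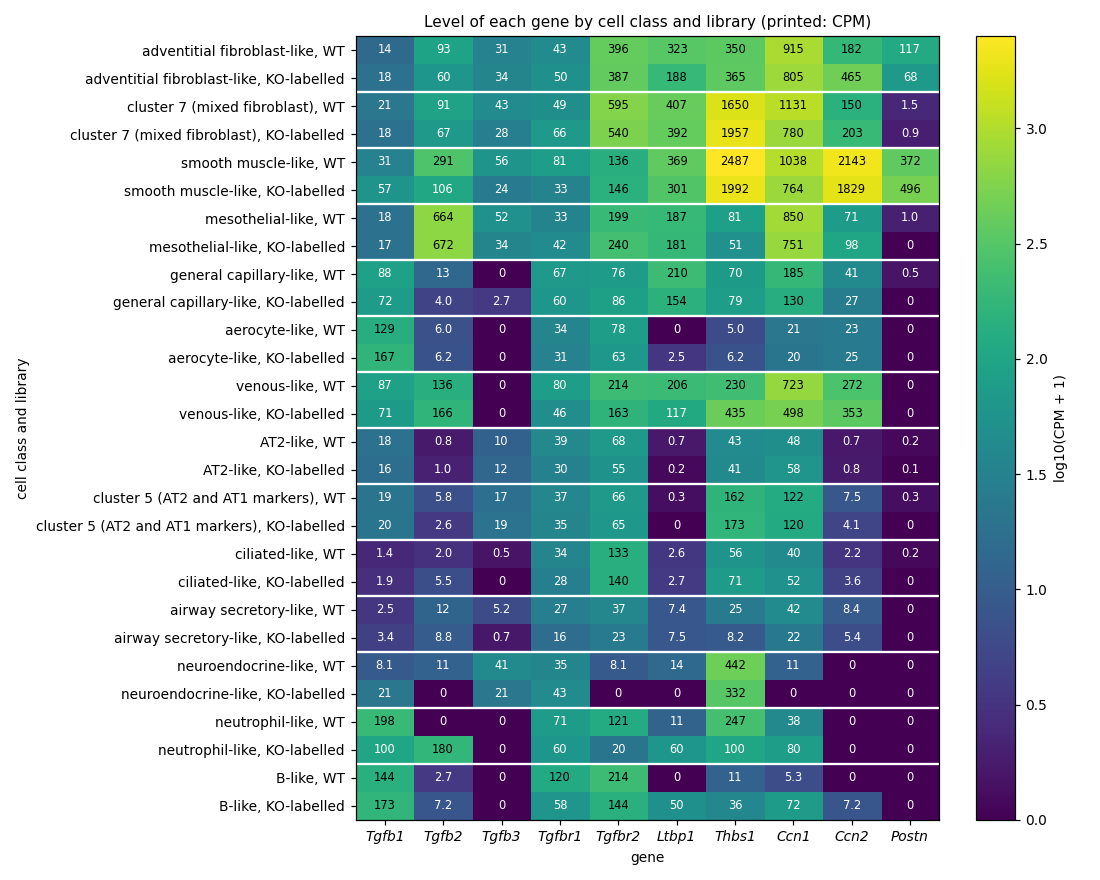
Level in CPM of the 10 genes (columns) in 14 cell classes, each with the WT library above the KO-labelled library (rows). Colour gives log10(CPM + 1), and values are to be read down a column, not across genes. Tgfb2 stands out in mesothelial-like cells, Postn in smooth muscle-like and adventitial fibroblast-like cells, and Ltbp1 is at or near 0 in aerocyte-like cells.

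The 3 ligand genes were found in different cells. Tgfb1 (chromosome 7, 25687002 to 25705077, plus strand, GRCm38) had its highest levels in endothelial-like and in the few immune-like cells. In aerocyte-like cells, the capillary cells of the gas exchange surface, it stood at 129 CPM in the WT and 167 CPM in the KO-labelled library. General capillary-like cells had 87.7 and 71.6 CPM, and venous-like cells 86.8 and 70.7 CPM. B-like cells had 144 and 173 CPM, which in neither library could be told from the aerocyte-like level beyond counting error, and neutrophil-like cells had 198 and 99.9 CPM. Fibroblast-like and mesothelial-like cells lay between 13.9 and 20.96 CPM in both libraries, and ciliated-like cells at 1.37 and 1.92 CPM. The aerocyte-like difference, a log2 ratio of 0.37 (95% interval 0.01 to 0.73), was the one Tgfb1 difference in the 9 compared classes whose interval left out 0, and under the stricter cell filter it was -0.15.

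Tgfb2 (chromosome 1, 186622792 to 186705989, minus strand) was foremost a gene of mesothelial-like cells, the cells that line the pleural surface. These cells held 3257 of its 3999 WT UMIs (81.4%) and 77.4% of those in the KO-labelled library. Their level was 664 CPM (642 to 687) in the WT and 672 CPM (631 to 715) in the KO-labelled library, and the intervals overlapped. A Tgfb2 UMI was seen in 72.6% and 81.5% of them, against 0.512% and 0.623% of AT2-like cells, with median depths of 4889 and 5370 UMIs in the first and 6428 and 6215 UMIs in the second. Next in order among the 14 classes in the WT library came smooth muscle-like cells with 291 CPM, venous-like cells with 136 CPM and both fibroblast classes with 93.0 and 90.8 CPM. AT1-like cells, only 12 and 40 in number, had 204.5 CPM (82.2 to 421) in the WT and 136 CPM (88.1 to 201) in the KO-labelled library. Within the mesothelial-like class the level was not even: cluster 6 had 763 CPM in the WT library and the smaller cluster 18 had 105 CPM. In the KO-labelled library they had 693 and 320 CPM, the latter from 27 UMIs in 18 cells, against 134 WT cells.

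In mesothelial-like cells, where Tgfb2 was most abundant, the log2 ratio was 0.02 (-0.09 to 0.12). This pooled value mixes clusters that went in opposite directions. The KO-labelled level was the lower one in cluster 6 (763 and 693 CPM) and the higher one in cluster 18 (105 and 320 CPM). Both fibroblast classes had lower levels in the KO-labelled library, with 60.1 CPM in the adventitial class (log2 ratio -0.63, -1.24 to -0.07) and 66.8 CPM in cluster 7 (-0.44, -0.84 to -0.06), where cells thinned to 1000 UMIs gave 0.21. Smooth muscle-like cells, too few to compare, had 106 CPM in the KO-labelled library (-1.46, -2.42 to -0.62). Of their 94 WT UMIs 28 came from 1 cell. Without the top cell of each library the ratio was -1.17 (-2.24 to -0.23), and in cells thinned to 1000 UMIs it was 0.02. In the compared classes, the ratios past 2-fold came from low counts. General capillary-like cells had 27 and 6 UMIs (-1.72, -3.28 to -0.41), cluster 5 had 18 and 11 UMIs (-1.14, -2.37 to 0.02), and ciliated-like cells had 12 and 20 UMIs (1.42, 0.32 to 2.59). Of the 20 UMIs in ciliated-like cells of the KO-labelled library, 15 were in 1 cell, and without the top cell of each library the log2 ratio was -0.45.

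Tgfb3 (chromosome 12, 86056745 to 86079041, minus strand) was found in mesenchymal, mesothelial, neuroendocrine-like and alveolar epithelial classes and hardly in endothelial ones. The WT levels were 55.8 CPM in smooth muscle-like, 51.6 in mesothelial-like, 43.0 in cluster 7 and 31.3 CPM in the adventitial class. AT2-like cells had 10.4 CPM in the WT and 12.1 CPM in the KO-labelled library, and because of their number they held 29.5% and 68% of all Tgfb3 UMIs. General capillary-like cells had 0 and 4 UMIs, and aerocyte-like and venous-like cells 0 UMIs in both libraries. In the last pair of classes a count of 0 allows up to 3.02 and 3.73 CPM in aerocyte-like cells and up to 7.04 and 10.6 CPM in venous-like cells. In the KO-labelled library Tgfb3 was lower in cluster 7 at 28.4 CPM (log2 ratio -0.60, -1.22 to -0.02) and in mesothelial-like cells at 34.1 CPM (-0.60, -1.06 to -0.16). Tgfb3 overlaps Ttll5 on the opposite strand, and Tgfb2, Thbs1 and Ccn2 overlap noncoding genes on theirs. How the authors' counting treated strand and overlap is not given in the sources used here.

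Both receptor genes were counted in nearly every class. Neuroendocrine-like cells were the exception for Tgfbr2, with 3 and 0 UMIs. Tgfbr2 (chromosome 9, 116084293 to 116175360, minus strand), the receptor that binds the ligand, stood at 595 CPM in WT and 540 CPM in KO-labelled cells of cluster 7. Adventitial fibroblast-like cells followed with 396 and 387 CPM, and the gap to cluster 7 was beyond counting error in both libraries. Mesothelial-like cells had 199 and 240 CPM, ciliated-like cells 133 and 140 CPM, AT2-like cells 68.2 and 54.6 CPM, and airway secretory-like cells 36.9 and 23.1 CPM. Tgfbr1 (chromosome 4, 47353222 to 47414931, plus strand), the kinase that signals to Smads, lay between 33.2 and 80.5 CPM in the WT classes outside airway secretory-like and B-like cells. In cluster 7 Tgfbr1 stood at 48.5 and 65.9 CPM (log2 ratio 0.44, 0.01 to 0.87), and without the top cell of each library the interval took in 0 (0.37, -0.07 to 0.81). In the AT2-like class, where the median ratio of all genes was -0.10, both receptor genes were lower in the KO-labelled library: Tgfbr1 at 38.8 against 30.4 CPM (log2 ratio -0.35, -0.48 to -0.22) and Tgfbr2 by a log2 ratio of -0.32 (-0.42 to -0.22). In mesothelial-like cells Tgfbr2 was higher instead (0.28, 0.10 to 0.45).

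Ltbp1 (chromosome 17, 75005568 to 75392512, plus strand), which tethers latent TGF-beta to the matrix, divided the endothelial classes. General capillary-like cells had 427 UMIs or 210 CPM in the WT and 228 UMIs or 154 CPM in the KO-labelled library. Aerocyte-like cells, the other capillary class of the alveoli, had 0 and 2 UMIs. With aerocyte-like cells set to a floor of 3 UMIs, the WT level in general capillary-like cells was 69.7-fold higher. The lower 95% limit of this WT ratio was 56.5, and in the KO-labelled library the ratio was 61.9 (95% interval 16.9 to 514). Venous-like cells had 206.5 and 117 CPM. The median depths of the 2 capillary classes were close, at 1337 and 1534 UMIs in the WT and 1342 and 1578 UMIs in the KO-labelled library.

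The highest Ltbp1 levels were in cluster 7 (407 and 392 CPM), smooth muscle-like cells (369 and 301 CPM) and adventitial fibroblast-like cells (323 and 188 CPM). The adventitial fibroblast-like difference was a log2 ratio of -0.78 (-1.11 to -0.47), that in venous-like cells -0.82 (-1.45 to -0.23; -0.14 with the libraries clustered apart) and that in general capillary-like cells -0.45 (-0.69 to -0.22). In cluster 7 and mesothelial-like cells the ratio was -0.05 in each, with intervals of -0.22 to 0.11 and -0.25 to 0.15. Mesothelial-like cluster 6 had 218 CPM in the WT library and cluster 18 had 13.6 CPM, from 10 UMIs. AT2-like cells had 16 and 6 UMIs in all, which gave a log2 ratio of -2.01 (-3.65 to -0.58) at levels under 1 CPM. Free RNA was not the same in the libraries, and transcripts of fibroblast genes were also fewer in AT2-like cells of the KO-labelled library: Dcn, a collagen-binding proteoglycan gene, was at 4.98 against 0.718 CPM and Col3a1, a fibrillar collagen gene, at 3.66 against 0.987 CPM. Its part in the Ltbp1 ratio of AT2-like cells was not tested.

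Thbs1 (chromosome 2, 118111876 to 118127133, plus strand) encodes thrombospondin-1, which can release TGF-beta from its latent complex. It was highest in smooth muscle-like cells, with 2487 CPM in the WT and 1992 CPM in the KO-labelled library, and in cluster 7, with 1650 and 1957 CPM. Cluster 7 held 50.9% of its WT UMIs. Adventitial fibroblast-like cells, the other fibroblast class, had 350 and 365 CPM. Among epithelial classes the neuroendocrine-like cells stood out at 442 CPM (376 to 515) in the WT library and 332 CPM (226 to 472) in the KO-labelled library, although the latter rests on 20 cells. Cluster 5 had 162 and 173 CPM and AT2-like cells 43.0 and 41.5 CPM. In aerocyte-like cells Thbs1 was at 5 UMIs in each library.

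Thbs1 went in different directions in different classes. It was higher in the KO-labelled library in cluster 7 (log2 ratio 0.25, 0.17 to 0.32) and in ciliated-like cells (0.34, 0.10 to 0.58), and lower in mesothelial-like cells (81.2 against 51.4 CPM, -0.66, -1.03 to -0.30). Airway secretory-like cells, too few to compare, had 103 and 12 UMIs, or 25.35 and 8.17 CPM (-1.63, -2.63 to -0.77). Under the alternatives their ratio lay between -2.05 and -1.22. Venous-like cells had 98 and 123 UMIs, or 230 and 435 CPM, a log2 ratio of 0.92 (0.52 to 1.32). Of the 123 UMIs, 49 were in 1 cell, and without the top cell of each library the ratio was 0.39 with an interval of -0.08 to 0.85. The KO-labelled venous-like class also held 1 cell with 9620 of its 9660 UMIs of the club cell gene Scgb1a1. That cell had 1 Thbs1 UMI and 13 Ccn1 UMIs, and without it the class stood at 462 CPM for Thbs1. In cluster 7 the higher level went with fewer cells: a Thbs1 UMI was seen in 70.2% of the WT and 58.2% of the KO-labelled cells (55.1% and 50% after thinning), beside 0.703% and 0.716% of aerocyte-like cells. When the libraries were clustered apart, the mixed fibroblast ratio for Thbs1 was -0.25 instead of 0.25.

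**Figure D2:**
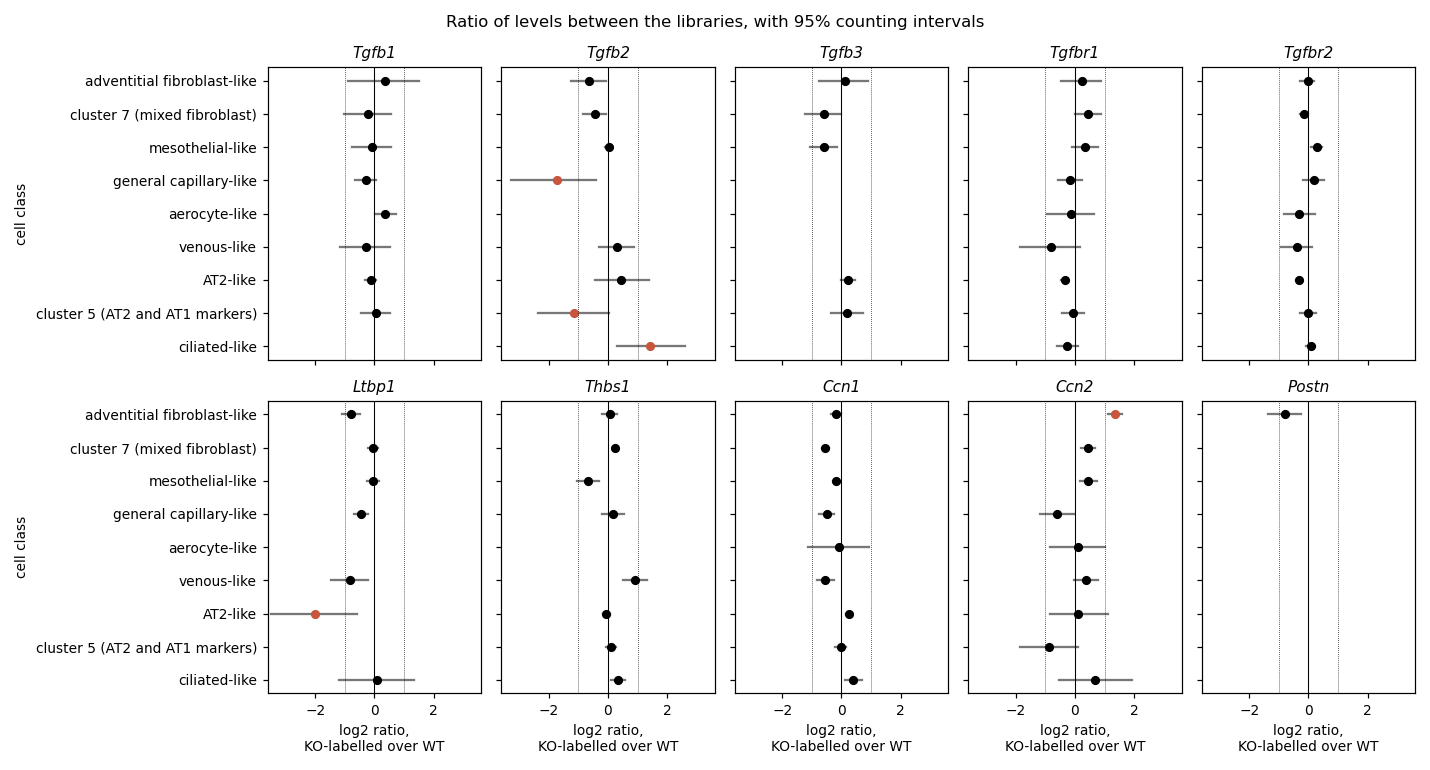
Log2 ratio of levels, KO-labelled over WT (x axis), for each of the 10 genes (panels) in the 9 compared classes (y axis), shown where both libraries together held at least 20 UMIs. Lines are 95% counting intervals, cut at the axis ends, dotted lines mark 2-fold and red points lie past it; Ccn2 in adventitial fibroblast-like cells is the one red point that rests on 50 or more UMIs.

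Ccn1 (chromosome 3, 145646976 to 145649981, minus strand) is a fast-responding gene of the matrix and of YAP and TEAD activity. Its promoter is shown because it is the one entry among the matricellular response genes Ccn1, Ccn2 and Thbs1 in the RefSeq promoter table used, which held 7 of the 10 genes. The 300 bases at chr3:145649936-145650235 (GRCm38.p6, minus strand) run from 250 bases before to 50 bases after the gene's start. Capitals mark CATTCC, which is GGAATG, the core of the TEAD motif, read on the other strand, and CAGAC, the Smad core.
Ccn1 promoter: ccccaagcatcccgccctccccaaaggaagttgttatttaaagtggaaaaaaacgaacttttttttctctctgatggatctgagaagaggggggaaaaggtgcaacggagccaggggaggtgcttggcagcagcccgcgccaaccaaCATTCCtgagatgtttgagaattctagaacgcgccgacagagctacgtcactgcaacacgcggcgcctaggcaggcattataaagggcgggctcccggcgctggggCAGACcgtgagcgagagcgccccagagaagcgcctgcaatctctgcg
The motifs do not overlap each other. Searched on both strands, GGAATG occurs in 14.7% and CAGAC in 49.6% of the 32851 promoters of this length, so these matches are descriptions of the letters and not sites. The CArG box did not occur in this window, as in all but 1.63% of the promoters.

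Ccn1 was abundant in mesenchymal, mesothelial and venous-like cells. In the WT library it stood at 1131 CPM in cluster 7, 1038 in smooth muscle-like, 915 in adventitial fibroblast-like, 851 in mesothelial-like and 723 in venous-like cells. The KO-labelled levels of the same classes were 780, 764, 805, 751 and 498 CPM, each below its WT level. The log2 ratio was -0.54 (-0.65 to -0.43) in cluster 7, -0.54 (-0.83 to -0.24) in venous-like, -0.18 (-0.34 to -0.03) in adventitial fibroblast-like and -0.18 (-0.28 to -0.08) in mesothelial-like cells. The adventitial fibroblast-like ratio was 0.16 in thinned cells. General capillary-like cells had 185 and 130 CPM (-0.50, -0.76 to -0.25), and 0.13 under the stricter cell filter. This class was made of a cluster with a low level (cluster 3, 75.4 and 65.8 CPM) and one with a high level (cluster 13, 552 and 287 CPM).

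In AT2-like and ciliated-like cells Ccn1 went the other way. The AT2-like class had 48.2 CPM in the WT and 57.8 CPM in the KO-labelled library (log2 ratio 0.26, 0.15 to 0.37), and ciliated-like cells 39.6 and 51.9 CPM (0.39, 0.11 to 0.68). Cluster 5 had 122 and 120 CPM. Airway secretory-like cells, 99 of them in the KO-labelled library, had 42.1 and 22.5 CPM (-0.91, but 1.04 in thinned cells). The AT1-like cells were too few to compare, with 12 and 40 cells, yet they had the highest epithelial levels: 2075 CPM (1620 to 2617) in the WT and 1355 CPM (1192 to 1534) in the KO-labelled library. These thin cells cover most of the alveolar surface.

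Ccn2 (chromosome 10, 24595442 to 24598683, plus strand) encodes connective tissue growth factor and marked smooth muscle-like cells, with 2143 CPM in the WT and 1829 CPM in the KO-labelled library. In the WT library venous-like cells followed with 272 CPM, adventitial fibroblast-like cells with 182, cluster 7 with 150 and mesothelial-like cells with 71.4 CPM, and each step in this order was beyond counting error. In the KO-labelled library adventitial fibroblast-like cells stood above venous-like ones, also beyond counting error. AT2-like cells were at 0.724 and 0.778 CPM, whereas AT1-like cells had 906 CPM (615 to 1286) and 729 CPM (611 to 864). Neuroendocrine-like and neutrophil-like cells had 0 UMIs in both libraries, which in the WT library allows up to 8.13 and 16.5 CPM.

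In the 9 compared classes, the largest difference of any of the 10 genes that rested on 50 or more UMIs was that of Ccn2 in adventitial fibroblast-like cells, the fibroblasts of the cuffs around vessels and airways. It was counted 366 times in 456 WT cells and 232 times in 112 KO-labelled cells, that is 182 CPM (164 to 202) and 465 CPM (407 to 529). The log2 ratio was 1.35 (1.11 to 1.59), higher in the KO-labelled library. Cells with a Ccn2 UMI made up 18.9% and 34.8%, or 11.5% and 18.0% after thinning to 1000 UMIs. The thinned shares vary with the random draw and have no interval here. The cells that had a Ccn2 UMI held a mean of 4.26 and 5.95 UMIs. In AT2-like cells the share with a Ccn2 UMI was 0.451% and 0.37%, at median depths of 6428 and 6215 UMIs against 4278 and 4150 UMIs in the fibroblasts. The cell with the most held 27 of the WT and 48 of the KO-labelled UMIs, and without these cells the ratio was 1.13 (0.86 to 1.39). Over all the alternatives it lay between 1.13 and 1.46, and the class was not found in the KO-labelled library when the libraries were clustered apart.

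Some other measures moved in the same class. Of the 20 immediate-early genes that rise during tissue digestion, all counted here, 16 lay at or below the median ratio of all genes, and the list's median was 0.54 below it on the log2 scale. Among them Egr1 had 1587 against 870 CPM and Ier3 449 against 234 CPM, while the phosphatase gene Dusp1 went the other way with 609 against 946 CPM. The matrix glycoprotein gene Sparc was higher in the KO-labelled library (4790 against 7418 CPM, log2 ratio 0.63), as was the elastin gene Eln (540 against 843 CPM, 0.64). The inhibitor of Smad signalling Pmepa1, itself switched on by TGF-beta, had 354 and 581 CPM (0.72, 0.51 to 0.91). Free RNA differed too: Scgb1a1 was at 2589 and 148 CPM and the AT2 gene Sftpc at 7681 and 8564 CPM. The part of tissue digestion and of free RNA in the Ccn2 difference was not tested.

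Ccn2 was also higher in cluster 7 (203 CPM in the KO-labelled library, log2 ratio 0.44, 0.20 to 0.68) and in mesothelial-like cells (97.5 CPM, 0.45, 0.16 to 0.73), and lower in general capillary-like cells (40.9 against 27.0 CPM, -0.60, -1.18 to -0.04). Under the alternatives the cluster 7 ratio lay between 0.07, as a mean over cells, and 1.88, with the libraries clustered apart, and the general capillary-like ratio between -1.79 and -0.12. Without the top cell of each library the mesothelial-like ratio was 0.30 with an interval that reached 0. The general capillary-like class was again uneven. The smaller cluster 13 had 122 and 62.4 CPM, and the larger cluster 3 had 16.6 and 12.4 CPM with overlapping intervals. In venous-like cells the interval included 0 (0.38, -0.02 to 0.77). Smooth muscle-like cells, with 96 and 36 cells, had a ratio of -0.23 (-0.45 to -0.01). The direction of the Ccn2 difference thus varied with the class, and these differences between classes were not tested.

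Postn (chromosome 3, 54361109 to 54391037, plus strand), the periostin gene and a known interleukin-13 response gene, was confined almost wholly to 2 of the 14 classes. Smooth muscle-like cells had 372 CPM (308 to 444) in the WT and 496 CPM (379 to 637) in the KO-labelled library, and adventitial fibroblast-like cells 117 CPM (103 to 133) and 68.1 CPM (47.2 to 95.2). These classes held 31.4% and 61.8% of its WT UMIs and 59.8% and 33.3% of those in the KO-labelled library. Lymphatic-like cells, 39 and 12 in number, had 10 and 4 UMIs, or 66.1 and 60.1 CPM. The other 12 described classes had between 0 and 5 UMIs in either library, and all airway epithelial classes together had 1 UMI. The adventitial fibroblast-like ratio was -0.79 (-1.35 to -0.26), and -1.26 (-1.95 to -0.64) without the top cell of each library, which in the KO-labelled library held 11 of the 34 UMIs. Of the genes that interleukin-13 and type 2 responses induce in structural cells, a list that includes Postn, 7 of 35 pairs were past 2-fold higher and 1 lower (22.9%, beside 2.86% to 9.14% of all genes by class). Of the 7 higher pairs 6 were Retnla in different classes, a gene that AT2-like cells express strongly. Sftpc, another gene of AT2-like cells, was also higher in those 6 classes, with log2 ratios of 0.10 to 3.96, and the part of free RNA in the Retnla values was not tested. The receptor genes Il4ra and Il13ra1 had log2 ratios of -0.20 and -0.17 in cluster 7 and 0.09 and 0.06 in general capillary-like cells. Retnla, an epithelial gene that type 2 cytokines induce, was at 1790 and 4284 CPM in AT2-like cells and at 83.6 and 328 CPM in adventitial fibroblast-like cells, and the eosinophil chemokine gene Ccl11 was at 882 and 1452 CPM in cluster 7. In AT2-like cells 4 and 2 Postn UMIs were counted.

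Of the 90 pairs of a gene and a compared class, 73 held at least 20 UMIs over both libraries. In 5 of them (6.85%) the level differed 2-fold or more, 2 higher and 3 lower in the KO-labelled library. Adventitial fibroblast-like cells had 1 of 10 genes past 2-fold (Ccn2), beside 8.21% of the 9078 genes counted there. Cluster 7, mesothelial-like, aerocyte-like and venous-like cells had 0 of 9, 0 of 9, 0 of 5 and 0 of 8, beside 4.27%, 9.14%, 5.06% and 8.42% of all genes. General capillary-like cells, AT2-like cells, cluster 5 and ciliated-like cells had 1 of 8, 1 of 9, 1 of 8 and 1 of 7, beside 5.21%, 3.7%, 2.86% and 3.76%. These 4 are the low counts of Tgfb2 and Ltbp1 described above, each under 50 UMIs. The members' 6.85% lies within the range of these shares. Counting intervals left out 0 in 12 pairs with higher and 20 pairs with lower levels in the KO-labelled library, and in 8 and 20 pairs without the top cell of each library. The share of all genes with such intervals was not counted, so these counts cannot be read as particular to the 10 genes.

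Over all kept cells the 10 genes looked different from what they did within classes. All 10 were lower in the KO-labelled library, by log2 ratios from -0.24 for Tgfb1 to -1.87 for Postn. Tgfb2 went from 79.1 to 26.3 CPM, Ltbp1 from 67.4 to 23.0 CPM and Ccn1 from 241 to 117 CPM. When the WT level of each of the 27 clusters was kept and only the share of each cluster in the UMIs was set to that of the KO-labelled library, Tgfb2 came to 29.7 CPM, Ltbp1 to 28.3 CPM and Ccn1 to 130 CPM. The log2 ratios given by the cell mix alone were -1.41, -1.25 and -0.88, beside -1.59, -1.55 and -1.03 over all cells. For Ccn2 the mix alone gave -1.04 and all cells -0.83, and for Thbs1 it gave -0.77 and all cells -0.68. For Tgfbr1 the mix gave -0.05 of the -0.30. A measurement of whole tissue would hold both parts, and fewer cells of a type and less RNA per cell could not be told apart in it.

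**Figure D3:**
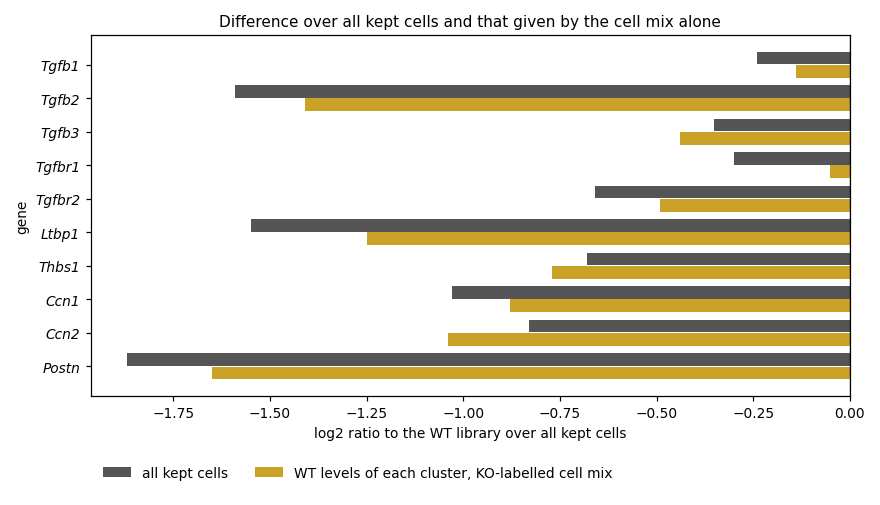
Log2 ratio of the KO-labelled over the WT library over all kept cells (grey bars) for the 10 genes, beside the ratio obtained when each cluster keeps its WT level and only the cell mix is that of the KO-labelled library (yellow bars). For Postn the bars reach -1.87 and -1.65, for Tgfb2 -1.59 and -1.41, and for Tgfbr1 -0.30 and -0.05.

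The fibroblasts of cluster 7 were not uniform. At a finer clustering resolution of 1.5, 140 WT and 61 KO-labelled cells of cluster 7 were named alveolar fibroblast-like, the fibroblasts that lie beside AT2 cells, and 632 and 279 remained mixed. Thbs1 stood at 470 CPM (392 to 558) in the WT alveolar fibroblast-like cells and at 1788 CPM (1735 to 1842) in the remainder. Ccn2 had the opposite order, with 697 CPM (602 to 803) and 87.8 CPM (76.5 to 100). Ltbp1, Tgfbr2 and Ccn1 were closer, at 452 and 402, 560 and 601, and 1011 and 1148 CPM. The KO-labelled library had the same order, with Thbs1 at 563 and 2128 CPM and Ccn2 at 529 and 163 CPM. The Ccn2 difference of cluster 7 was found in the remainder, where the intervals of the libraries did not overlap (76.5 to 100 and 139 to 191 CPM), and in the alveolar fibroblast-like cells the KO-labelled level was the lower one, with overlapping intervals (407 to 677 CPM in the KO-labelled library).

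The same counts were also described cell by cell, which is no separate support for the contrast. Among WT cells of cluster 7 thinned to 1000 UMIs, 32 of 409 cells with Thbs1 also had Ccn2 (7.82%, exact 95% interval 5.41 to 10.9), against 55 of 340 cells without Thbs1 (16.2%, 12.4 to 20.5). The KO-labelled shares were 12% (7.47 to 17.9) and 18.5% (12.7 to 25.4), with overlapping intervals. Ccn1 went with Thbs1 instead: it was seen in 58.9% (54.0 to 63.7) of the WT cells with Thbs1 and 45.9% (40.5 to 51.3) of those without, and in 46.7% (39.0 to 54.6) and 25.5% (18.9 to 33.0) in the KO-labelled library. In WT smooth muscle-like cells Ccn2 was seen in 26 of 40 cells with Ccn1 and 13 of 51 without (65.0% and 25.5%). Cells of 1 library are not replicates, and these shares describe the 2 libraries.

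The smooth muscle-like class also held cells with more pericyte markers. In 11 WT and 10 KO-labelled cells more pericyte than muscle markers were detected, and in 75 and 24 cells more muscle markers. A further 10 and 2 cells had equal numbers of both and are in neither group. Acta2, the smooth muscle actin gene, was at 581 and 0 CPM in the pericyte-marked and at 13920 and 11720 CPM in the muscle-marked cells. It is one of the muscle markers used for the split, so its contrast follows from the rule and is no separate support. Postn was at 1162 CPM (837 to 1570) and 1289 CPM (881 to 1819) in the pericyte-marked cells, against 318 CPM (251 to 396) and 305 CPM (204 to 438) in the muscle-marked ones. Ccn2 was the reverse, with 194 and 121 CPM against 2780 and 2314 CPM. Thbs1 was high in both, at 2683 and 1369 CPM against 2589 and 2167 CPM. The pericyte-marked cells were 11 of 96 WT and 10 of 36 KO-labelled cells of the class. The part of this mix in the Postn levels of the whole class (372 and 496 CPM) was not tested. This division, like the finer one of cluster 7, was made after values had been seen.

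**Figure D4:**
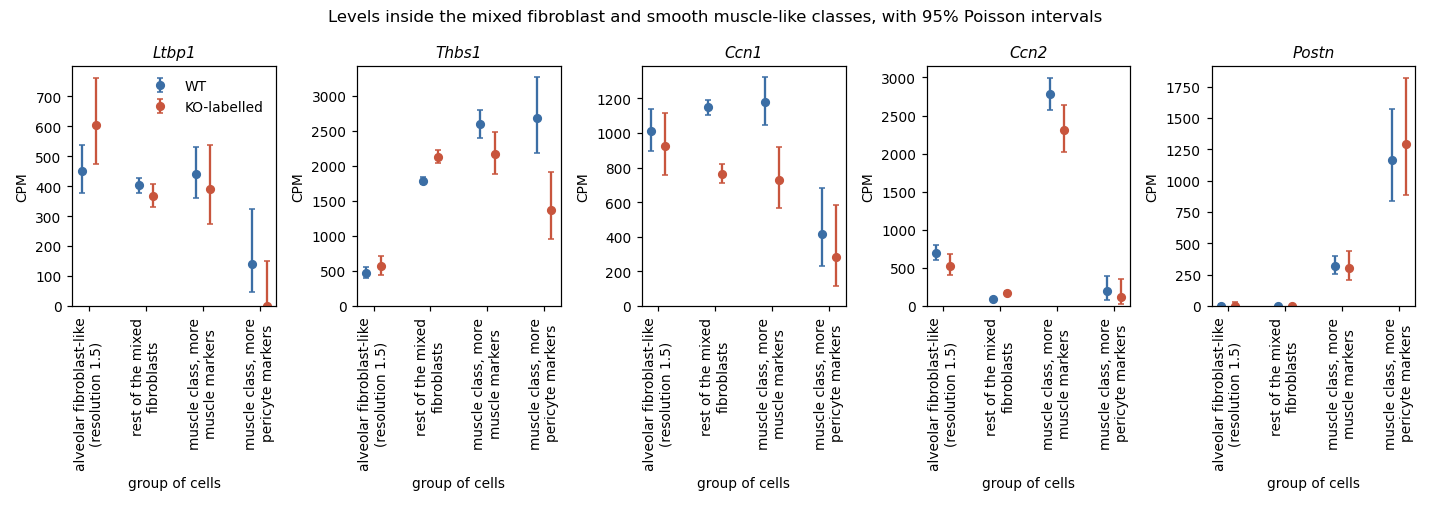
Level in CPM (y axes, each from 0) of 5 of the genes in 2 groups of cells from cluster 7 and 2 from the smooth muscle-like class (x axes), with the WT library in blue and the KO-labelled library in red; bars are exact 95% Poisson intervals. Thbs1 and Ccn2 are in opposite order in the groups of cluster 7 (470 and 1788 CPM, 697 and 87.8 CPM in the WT library), and Postn is highest in the pericyte-marked cells.

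Other genes of the pathway were counted from fixed lists, by how many were past 2-fold in the 9 compared classes. The other latency and activation genes gave 2 higher and 9 lower of 120 pairs, the other receptors and Smads 0 and 2 of 86, the feedback genes and inhibitors 3 and 7 of 108, the Smad target genes 5 and 15 of 162, and the YAP and TEAD targets 5 and 4 of 94. These are 9.17%, 2.33%, 9.26%, 12.3% and 9.57% of their pairs, beside 2.86% to 9.14% of all genes by class. The other CCN, thrombospondin and matricellular genes gave 3 and 3 of 57 (10.5%). Over the classes, the list medians minus that of all genes ran from -0.49 to 0.21 for latency, -0.25 to 0.09 for feedback, -0.49 to 0.07 for Smad targets and -0.36 to 0.27 for the YAP and TEAD targets, a list that includes Tgfb2. Of the 15 lower pairs of Smad targets, 7 were in AT2-like cells, where the list's median was 0.49 below that of all genes. The lowest there were Col3a1 and the protease inhibitor gene Timp1 (3.94 against 1.20 CPM), low counts of genes that fibroblasts express strongly. In cluster 7, by contrast, Timp1 was higher in the KO-labelled library (2379 against 3808 CPM, log2 ratio 0.68). The activator Lrrc32, which displays latent TGF-beta on the cell surface, was higher there too (40.1 against 75.0 CPM, 0.90, 0.47 to 1.33), and Skil, a repressor of Smad signalling that TGF-beta induces, was lower (128 against 71.4 CPM, -0.84, -1.22 to -0.48). The lists of receptors and Smads stayed within 0.11 of the median of all genes in the 9 classes.

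The list of immediate-early genes that rise during tissue digestion differed by class, and what moved these genes here was not tested. It lay 0.54 below all genes in adventitial fibroblast-like cells, 0.44 in cluster 7 and 0.24 in mesothelial-like cells, and 0.36 above in general capillary-like, 0.23 above in aerocyte-like, 0.17 above in venous-like and 0.21 above in ciliated-like cells. Ccn1 was lower in the KO-labelled library in the first 3 of these and higher in ciliated-like cells, but lower in general capillary-like and venous-like cells. In aerocyte-like cells its log2 ratio was -0.09 (-1.12 to 0.92). Ccn2 had the opposite sign to the list in adventitial fibroblast-like, cluster 7, mesothelial-like and general capillary-like cells. It had the same sign in aerocyte-like (0.11), venous-like (0.38) and ciliated-like cells (0.69, from 13 UMIs in each library). Among single genes of the list in cluster 7, Egr3 had 36.8 against 11.9 CPM and Egr2 83.5 against 35.7 CPM. Sftpc, the foremost free-RNA marker, was higher in the KO-labelled library in general capillary-like (4061 and 21410 CPM), aerocyte-like (1459 and 11570), mesothelial-like (2242 and 7350) and venous-like cells (1136 and 17700). The part of tissue digestion and of free RNA in the results was not tested.

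Across the 28 profiles of 14 classes and 2 libraries, the genes with the most similar pattern were found for each of the 10 by Pearson correlation of log2(CPM + 10) over 12916 genes. The profiles of a class share its cells' markers and those of a library its free RNA, so the values are descriptions. Ltbp1 was most like the elastin gene Eln (r = 0.96), the related binding protein gene Ltbp4 (0.94) and the collagen gene Col5a2 (0.93). Postn was most like Ndufa4l2 (0.97), a pericyte gene, and Aoc3 (0.97), and Ccn2 was most like Mustn1 (0.94), Mfge8 (0.90) and Pcdh7 (0.90). Tgfb1 was most like Srgn (0.90), Gngt2 (0.88) and Nrros (0.88), which encodes a tether of latent TGF-beta in myeloid cells. Tgfb2 was most like Ptgis (0.92), Fbln5 (0.91) and Sulf1 (0.90), and Ccn1 most like Fbln5, Lama4 and Ahnak (0.91 each). Tgfb3 (Snhg18, 0.90), Tgfbr2 (Abca1, 0.91), Thbs1 (Arhgap42, 0.81) and Tgfbr1 (Ccng2, 0.81) complete the set.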

How the data were processed

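The authors deposited counts (UMIs of each gene in each barcode, not normalized), made with Cell Ranger (7.0.0 and 7.1.0) on mm10, per the submitters' processing notes. Whether intronic reads were counted is not given in the sources used here. Barcodes entered with 500 or more genes and no more than 15% of UMIs from mitochondrial genes, and doublets marked by Scrublet in scanpy 1.11.5 (617 WT, 5.69%; 175 KO-labelled, 1.92%) were removed. Both libraries were clustered together (2000 variable genes, 30 components, 15 neighbours, Leiden resolution 1, leidenalg 0.10.2), leaving out the 10 genes, Plaur, mitochondrial, ribosomal and haemoglobin genes and a few sex-specific genes. A class name needed 3 or more of its markers in the 50 leading genes of a cluster, with no other class ahead there or in the first 10. Cluster 5 had more AT2 than AT1 markers in its 50 leading genes but fewer in the first 10, so it kept its number. UMIs were summed per class and library and divided by the class total. CPM has exact Poisson, shares exact Clopper-Pearson and ratios exact conditional binomial 95% intervals. Thinned values rest on a random draw of UMIs and vary with it. A count of 0 stands at a floor of 3 UMIs. PCR duplicates are collapsed by UMIs, and intervals and floors cover counting error only. The total depth was 57028943 WT and 51529241 KO-labelled UMIs. TMM scaling (edgeR 4.0.16) would move AT2-like ratios by 0.12 and those of the other compared classes by -0.04 to 0.09. The code was tested on simulated data. Named genes are the 10, the 2 highest and 2 lowest of each list in a class with at least 100 UMIs, and the 3 most similar genes, except that marker genes used as checks (Sftpc, Scgb1a1, Acta2) and Plaur were added. Some genes that this rule names are not reported here. The genes and lists were chosen with earlier results of these data known. Positions are from GENCODE M21, the promoter from RefSeq (GRCm38.p6).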

Additional observations from a re-analysis of the deposited data

Results flagged for a closer look

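Of the 10 genes, 4 had counting intervals above 0 in one compared class and below 0 in another, also without the cell that held most of their UMIs. The log2 ratio of the KO-labelled over the WT library was 1.35 for Ccn2 in adventitial fibroblast-like cells and -0.60 in general capillary-like cells. Of the 83 WT UMIs in the latter, 57 were in the smaller cluster 13. For Ccn1 it was 0.39 in ciliated-like cells and -0.54 in cluster 7, the mixed fibroblasts. For Thbs1 it was 0.34 in ciliated-like cells and -0.66 in mesothelial-like cells, and for Tgfbr2 0.28 in mesothelial-like and -0.32 in AT2-like cells. With 1 library per genotype none of these differences between classes was tested. How many of all genes have intervals on both sides of 0 was not counted, so this is not shown to be particular to these genes.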

How the results depend on the processing

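In the 8 named compared classes, 2 pairs of a gene and a class were 2-fold or more higher and 2 lower in the KO-labelled library. The count of higher pairs was 1 with doublets kept, 1 without the top cell of each library (chosen after seeing the data), 1 with at least 50 UMIs, 4 with no UMI minimum, 5 under the stricter cell filter and 5 with the libraries clustered apart, where 7 classes had a value. The count of lower pairs was 4 in thinned cells, 5 with the libraries clustered apart, 1 at resolution 1.5 and 0 with at least 50 UMIs. The Tgfb2 ratio of ciliated-like cells, 1.42, reversed to -1.98 with doublets kept, -0.57 with the libraries clustered apart and -0.45 without the top cell, and that of smooth muscle-like cells, -1.46, to 0.02 in thinned cells. Smaller ratios whose interval left out 0 also changed sign: Ccn1 in adventitial fibroblast-like (0.16) and airway secretory-like cells (1.04) and Tgfb2 in cluster 7 (0.21) when thinned, Ccn1 in general capillary-like (0.13) and Tgfb1 in aerocyte-like cells (-0.15) under the stricter filter, and Thbs1 in cluster 7 (-0.25) with the libraries clustered apart. The causes were not tested. Of 1177 alternative values for 97 ratios, 1109 stayed inside the counting interval of the ratio. No paired analysis was possible because each group has 1 library. Depth limits the classes with few cells most.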
